A study of Arabidopsis thaliana with 4 samples.

Results

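Polyamines are small organic cations made from arginine and methionine. Arginine decarboxylase starts the plant route to putrescine, and S-adenosylmethionine decarboxylase supplies the decarboxylated S-adenosylmethionine from which spermidine, spermine and thermospermine synthases take the aminopropyl group that lengthens the chain. In Arabidopsis the route has been tied to stem elongation, xylem development and shoot form, and loss of the decarboxylase BUD2 gives bushy, dwarf plants.

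The genes described here are the 10 Arabidopsis loci for those steps, of which 3 were measured among 22746 tested probe sets. A gene was taken as measured where the platform's probe table paired a probe set with that gene alone. All 3 encode S-adenosylmethionine decarboxylases: AT5G15950 (probe set 246490_at), SAMDC, which is locus AT3G02470 (258500_at), and AT3G25570 (257960_at). The fourth decarboxylase, BUD2, was not among the genes so paired, and neither were the 4 synthases SPDS1, SPDS2, SPDS3 and ACL5 or the 2 arginine decarboxylases ADC1 and ADC2. Their levels were not analysed here, so the data describe 1 enzymatic step of the route. The probe sets were chosen by their mean signal over the 4 arrays: the rule took the brightest probe set on average where a gene had several, but each of the 3 genes had 1. The group was chosen with the GR24 difference of AT5G15950 already known, so the GR24 differences of the 3 genes are given as a description, with no p-value.

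Transcripts were measured on 4 single-channel arrays of whole seedlings, 14 days old, of the Col strain. On 2 arrays the plants had received 1 µM GR24, a synthetic strigolactone, for 90 min, and on the other 2 arrays dimethyl sulfoxide, the solvent, for the same time as a mock. All plants, the mock ones included, carried the max3 mutation, which blocks the plant's own synthesis of strigolactones, hormones that restrain branching. Each replicate number, 1 or 2, stands for an independent analysis that started from its own seedlings, so GR24 was compared with mock inside each number.

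All values are RMA signals on the log2 scale, where a difference of 1 is a doubling. Array medians lay between 7.03 and 7.06. The number of arrays limits the precision of every value. Of the marker lists for the tissue, 1 of 20 shoot genes and 4 of 12 root genes were measured, and none of 10 xylem genes. The light-harvesting gene LHCB4.1 lay between 13.0 and 13.4 on the 4 arrays, and the root genes between 4.61 and 13.3, the highest being PYK10, a beta-glucosidase of ER bodies. Neither list held a gene that passed the GR24 test, with adjusted p of 0.970 for LHCB4.1 and no lower than 0.853 for the root genes in the limma fit described next.

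AT5G15950 had a lower signal with GR24 in both pairs. Its log2 values were 6.50 and 7.25 in GR24 seedlings of replicates 1 and 2, against 7.11 and 7.97 in mock seedlings. GR24 was below mock within each replicate number, with a log2 difference of -0.61 in replicate 1 and -0.72 in replicate 2. The groups nevertheless overlapped, because the GR24 array of replicate 2 was above the mock array of replicate 1.

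The mean difference for AT5G15950 was -0.67 ± 0.10 (moderated SE, n = 2 pairs), so mock seedlings had 1.59 times the signal of GR24 seedlings. Its 95% interval ran from -0.90 to -0.43. This difference was already known when the group was chosen, so the interval is a description and not a test. The SE and interval come from a limma model that takes out the replicate difference (the replicate block), in which 7.62 prior degrees of freedom shared by all probe sets stand beside 1 residual degree of freedom. They therefore say little about the spread of one gene's own pairs. In this tissue RNA, fewer cells that express the gene and less transcript per cell cannot be told apart.

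SAMDC had nearly equal signals in both treatments. Its log2 values were 13.34 and 13.54 in GR24 seedlings of replicates 1 and 2, against 13.31 and 13.59 in mock seedlings. The differences had opposite signs, 0.03 in replicate 1 and -0.05 in replicate 2, with a mean of -0.01 and a 95% interval from -0.24 to 0.22. These signals lay near the highest value on the arrays, 14.3.

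AT3G25570 was likewise nearly level. It had log2 values of 6.81 and 6.95 in GR24 seedlings of replicates 1 and 2, against 6.75 and 7.11 in mock seedlings. The differences were 0.06 in replicate 1 and -0.17 in replicate 2, with a mean of -0.05 and a 95% interval from -0.30 to 0.19. The intervals of SAMDC and AT3G25570 leave room for modest differences either way.

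**Figure D1:**
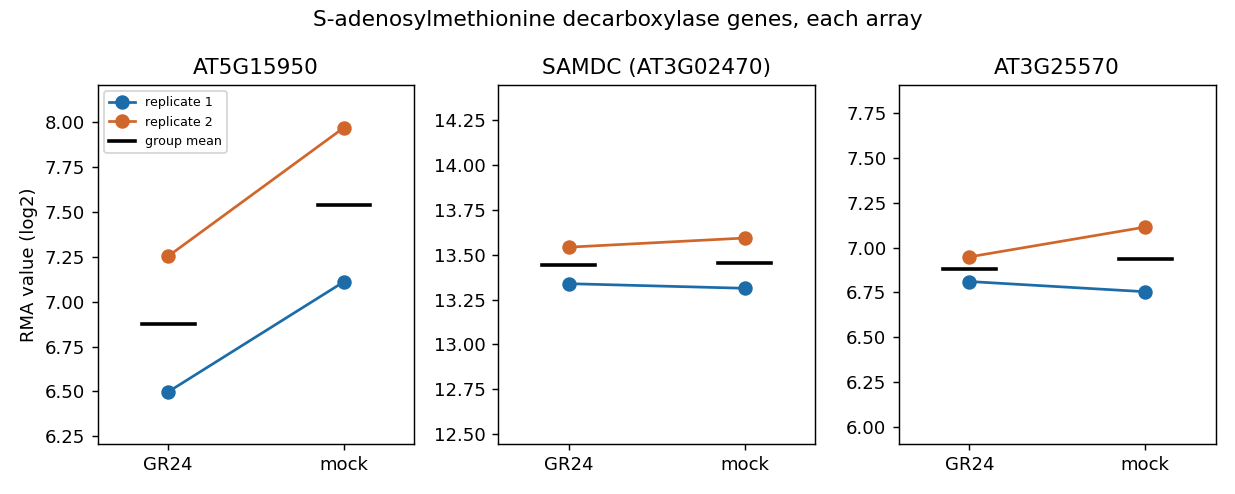
RMA log2 values of the 3 measured S-adenosylmethionine decarboxylase genes in GR24 and mock seedlings; points are single arrays, lines join arrays of one replicate number, black bars are group means, and each panel spans 2 log2 units. AT5G15950 is lower with GR24 along both lines, while the lines of SAMDC and AT3G25570 are nearly flat; replicate 2 lies above replicate 1 in every panel.

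The GR24 difference of AT5G15950 minus that of SAMDC on the same arrays was -0.64 in replicate 1 and -0.67 in replicate 2. Minus that of AT3G25570, it was -0.67 in replicate 1 and -0.55 in replicate 2. The genes thus parted by a similar amount in both preparations. Since SAMDC and AT3G25570 were nearly level, these values largely restate the differences of AT5G15950, already known when the group was chosen. No test was attached to these contrasts between genes: an exact sign-flip permutation test over 2 pairs cannot give a two-sided p below 0.5.

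Over all 22746 probe sets, 69 passed an adjusted p of 0.05 (limma, Benjamini-Hochberg), a share of 0.303%, of which 36 were lower with GR24, a share of 0.158%. AT5G15950 was among those 36, and SAMDC and AT3G25570 were not among the 69. Since AT5G15950 drew attention through this same contrast, its call carries no weight of its own. In replicate 1, 183 probe sets were at least as far below mock as AT5G15950, in replicate 2 it was 49, and 27 were so in both. The median difference of the 3 genes was -0.05 log2, beside 0.01 over all probe sets. AT5G15950 was not among the calls when the replicate block was left out, after repeated quantile normalization or after centring the arrays. It was also not called without the dimmest 25% of probe sets or with 16 added to the linear signal. It was called under the 2 other priors tried. Without the block, its difference was -1.10 when mock replicate 1 was left out, -1.04 without GR24 replicate 2, -0.29 without GR24 replicate 1 and -0.24 without mock replicate 2.

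**Figure D2:**
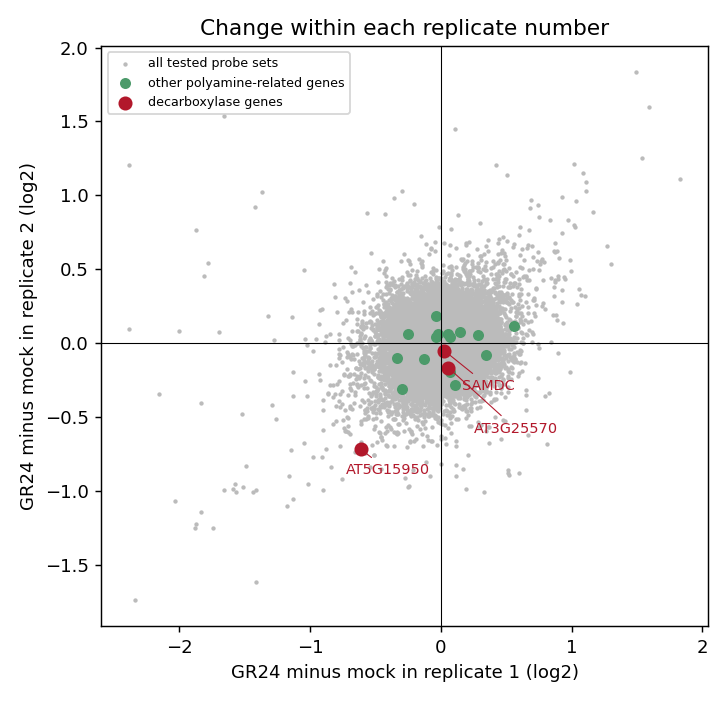
GR24 minus mock (log2) in replicate 1 on the horizontal axis and in replicate 2 on the vertical axis; grey points are all 22746 tested probe sets, green points 15 other polyamine-related genes and red points the 3 decarboxylase genes. AT5G15950 lies at -0.61 and -0.72 outside the central cloud, and SAMDC and AT3G25570 lie inside it.

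The choice of these genes did not use the difference between replicate numbers, which was tested with treatment as a block. In that contrast 16.7% of probe sets passed, 8.14% of all being higher and 8.59% lower in replicate 2. AT5G15950 was higher in replicate 2 by 0.76 among GR24 arrays and by 0.86 among mock arrays. Its mean difference was 0.81 ± 0.10 log2, or 1.75-fold (moderated SE, n = 2 pairs, adjusted p = 0.0023 in limma). The difference between preparations was thus present under both treatments, and within each treatment it exceeded in size the GR24 differences of -0.61 and -0.72; whether the sizes differ was not tested. The call was lost when the treatment block was left out (adjusted p = 0.0974 in limma). Each replicate number is 1 preparation, so the p-values of this contrast do not measure how far preparations vary. For AT5G15950 the SE of 0.10 is the same as that of its GR24 difference. Its p-value here is therefore not free of the choice of the gene.

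SAMDC and AT3G25570 leaned the same way without passing. SAMDC was higher in replicate 2 by 0.20 among GR24 arrays and 0.28 among mock arrays, with a mean of 0.24 ± 0.10 (adjusted p = 0.141 in limma). AT3G25570 was higher by 0.14 among GR24 arrays and 0.36 among mock arrays, with a mean of 0.25 ± 0.11 (adjusted p = 0.152 in limma). All 3 decarboxylase genes were therefore higher in replicate 2 under both treatments. Of the 3, 1 passed, beside 8.14% of all probe sets that passed as higher in replicate 2. Of the 15 other polyamine-related genes described below, 7 were higher in replicate 2 under both treatments. The share of all probe sets higher under both treatments was not computed, so these counts cannot be set against a background and are a description only. The median difference of the 3 decarboxylase genes was 0.25 and that of the 15 other genes 0.08, beside -0.02 over all probe sets.

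Of the 4 measured root markers, 2 passed as higher in replicate 2, beside 8.14% of all probe sets. The root hair expansin gene EXPA7 was higher in replicate 2 by 0.67 ± 0.10 (adjusted p = 0.00535 in limma) and EXPA18 by 0.58 ± 0.10 (adjusted p = 0.00785 in limma). Both were dim, EXPA7 at 4.79 to 5.58 log2 and EXPA18 at 4.94 to 5.66, where the lower quartile of the arrays was 4.69 to 4.74. PYK10 and AT5G65530 did not pass, and AT5G65530 differed by 0.005. The shoot marker LHCB4.1 was 0.30 ± 0.10 higher without passing (adjusted p = 0.0828 in limma). The summed linear signal of the 4 root genes in replicate 2 was 9671 in GR24 and 9918 in mock seedlings. In replicate 1 it was 8878 in GR24 and 9184 in mock seedlings. PYK10, at 13.1 to 13.3 log2, made up nearly all of each sum, so the sums say little about EXPA7 and EXPA18. PYK10 itself was 0.11 ± 0.10 higher in replicate 2 (adjusted p = 0.494 in limma). The lowest marker value was 4.61 log2, and the lowest of any tested probe set was 2.75. Without detection calls, no marker is called present or absent. The part of tissue makeup in the replicate difference of AT5G15950 was not tested.

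The genes around the decarboxylase step were taken from 9 lists of 63 genes, of which 15 were measured. The 3 lists for AdoMet synthesis, for agmatine conversion to putrescine with arginine degradation, and for polyamine transport had no measured member. Of the 15 genes, 0 passed the GR24 test in limma, beside 0.303% of all probe sets, and 2 had an unadjusted p under 0.05, beside 7.47% of all probe sets. Their differences lay between -0.31 and 0.34 log2 with a median of 0.02, against 0.01 over all probe sets. Within pairs, 3 were lower with GR24 in both, 5 higher in both and 7 of opposite sign. Among all probe sets, 52% had the same sign in both pairs and 23.3% were lower in both. The groups did not overlap in 4 of the 15 genes and in 0 of the 3 decarboxylase genes, beside 23.1% of all probe sets.

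Polyamine oxidation, the breakdown of polyamines that yields hydrogen peroxide, had 6 of 13 genes measured, all of them copper amine oxidases. The gene with the largest difference was AT1G31670. It had log2 values of 4.78 and 4.90 in GR24 seedlings of replicates 1 and 2, against 5.08 and 5.21 in mock seedlings. Both GR24 arrays were below both mock arrays, and the mean difference was -0.31 ± 0.10 (adjusted p = 0.450 in limma). The 5 other oxidases lay between -0.22 for AT1G31690 and 0.17 for CuAO1. AT1G31710 and AT1G31690 each had a second probe set, with mean GR24 differences of 0.14 and -0.12 that had the same sign as the first. That of AT1G31710 was above mock in replicate 1, at 7.28 against 6.99, but slightly below it in replicate 2, at 7.68 against 7.70. That of AT1G31690, at 4.13 to 4.37, lay below the lower quartile of every array.

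Conjugation and acetylation, which tie polyamines to phenolic acids or acetyl groups, had 4 of 6 genes measured. The largest difference was -0.12 ± 0.10 for SHT, the spermidine hydroxycinnamoyl transferase of anther tapetum (adjusted p = 0.881 in limma). SHT had 4.17 and 4.23 log2 in GR24 seedlings of replicates 1 and 2, against 4.29 and 4.34 in mock seedlings, so the groups did not overlap. The differences of the spermidine disinapoyl transferase gene SDT, AT2G25150 and the acetyltransferase gene AT2G39020 lay between 0.00 and 0.11. The signals of SHT, SDT and AT2G25150 lay below the lower quartile of every array, which was 4.69 to 4.74 log2. With no detection calls, their signals cannot be told from background.

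The bHLH gene AT5G09460 belongs to the SAC51 family, whose translation in Arabidopsis is relieved by thermospermine. It had the largest positive difference of the 15 genes. Its log2 values were 7.49 and 7.51 in GR24 seedlings of replicates 1 and 2, against 6.93 and 7.39 in mock seedlings. The groups did not overlap, but the differences were 0.56 and 0.12 in the 2 pairs, and the mean of 0.34 ± 0.13 did not pass (adjusted p = 0.535 in limma). The other measured member of its list, AT5G50010, differed by 0.02.

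The remaining 3 genes stand for neighbouring uses of the same substrates. ARD4, an acireductone dioxygenase that recycles the methylthioadenosine left by polyamine synthesis, differed by -0.09 ± 0.11 with GR24 (adjusted p = 0.930 in limma). AT1G12010, an oxidase of ethylene synthesis, which also starts from S-adenosylmethionine, differed by 0.13 ± 0.12 (adjusted p = 0.902 in limma). AT3G58180, a hydroxylase that turns spermidine-derived deoxyhypusine into hypusine on the factor eIF5A, differed by 0.06 ± 0.10 (adjusted p = 0.963 in limma).

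Between replicate numbers, 2 of the 15 genes passed, beside 16.7% of all probe sets. Both were lower in replicate 2, opposite to AT5G15950. ARD4 differed by -0.47 ± 0.11 (adjusted p = 0.0265 in limma) and AT1G12010 by -0.55 ± 0.12 (adjusted p = 0.0202 in limma). ARD4 had 9.62 in GR24 and 9.55 in mock seedlings of replicate 2, against 9.93 in GR24 and 10.18 in mock seedlings of replicate 1. AT1G12010 had 7.84 in GR24 and 7.92 in mock seedlings of replicate 2, against 8.60 in GR24 and 8.26 in mock seedlings of replicate 1. The second probe set of the amine oxidase gene AT1G31710 was higher in replicate 2 by 0.56 (adjusted p = 0.0145 in limma), and its brighter one by 0.31 (adjusted p = 0.0662 in limma).

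**Figure D3:**
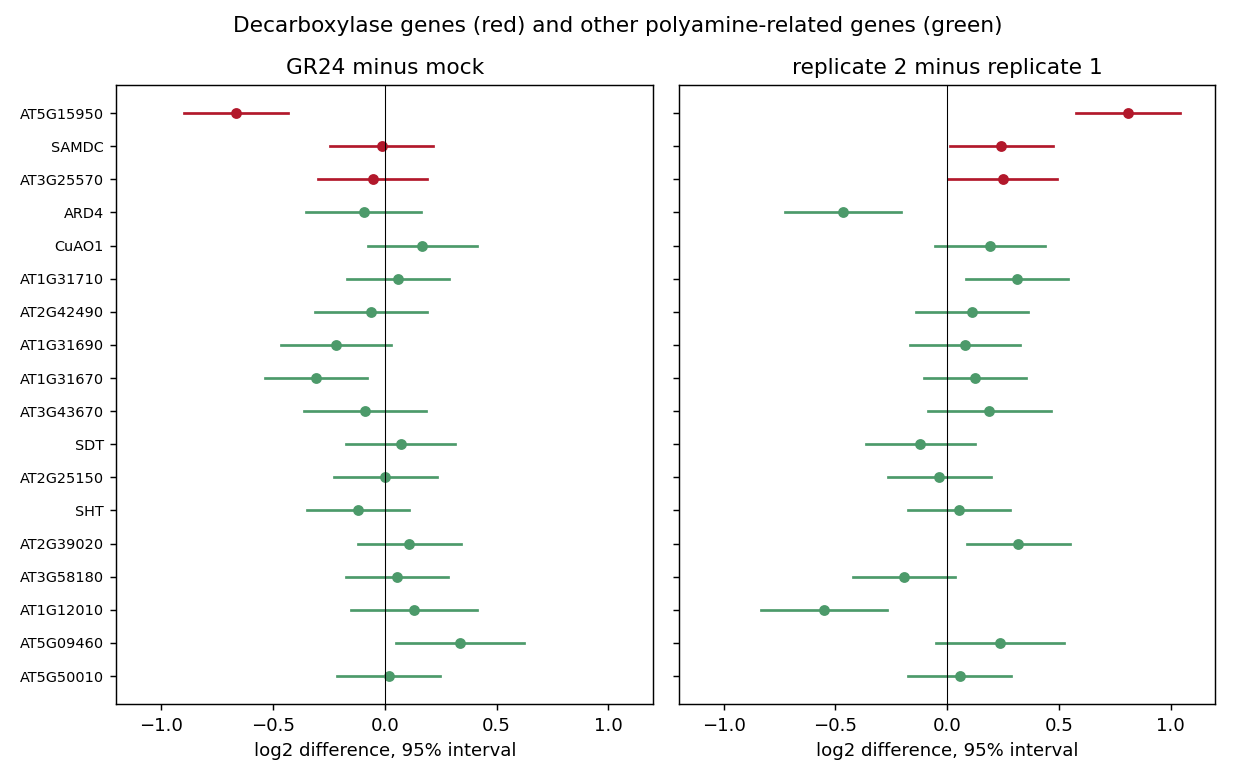
Log2 differences GR24 minus mock (left) and replicate 2 minus replicate 1 (right) for the 3 decarboxylase genes (red) and 15 other polyamine-related genes (green); points are estimates and lines 95% intervals of the limma model. AT5G15950 stands at -0.67 on the left and 0.81 on the right, and ARD4 and AT1G12010 lie on the other side of 0 on the right.

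The genes with the profile most like that of AT5G15950 were sought among 13507 other probe sets with 1 gene, by the Euclidean distance between log2 values over the 4 arrays after each gene's mean was removed. The nearest was AT2G40460, a gene of the peptide and nitrate transporter family, at a distance of 0.154. It had 6.02 and 6.79 in GR24 seedlings of replicates 1 and 2, against 6.63 and 7.32 in mock seedlings. The next were the transcription factor gene BZIP34 at 0.245, AT1G79710 at 0.254, the xyloglucan endotransglucosylase gene XTH32 at 0.260 and the defensin-like gene LCR67 at 0.273.

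All 5 were lower with GR24 in both pairs, as the choice by profile fixes. Their GR24 differences lay between -0.69 for BZIP34 and -0.42 for XTH32, and their replicate differences between 0.58 for BZIP34 and 1.04 for LCR67. BZIP34 differed from AT5G15950 in that its GR24 arrays, at 4.66 and 5.10, were both below its mock arrays, at 5.20 and 5.94. In the other 4 genes the groups overlapped, as in AT5G15950. Likeness over 4 arrays that share 2 preparations is a description of these arrays.

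**Figure D4:**
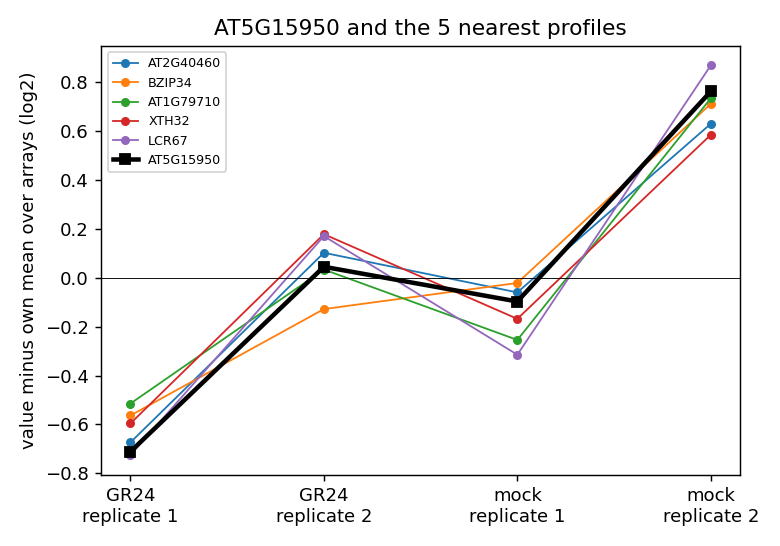
Log2 values minus each gene's own mean over the 4 arrays, for AT5G15950 (black squares) and the 5 genes with the nearest profiles (coloured points); lines only join the values of one gene. In all 6 genes GR24 replicate 1 is the lowest array and mock replicate 2 the highest.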

How the data were processed

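The deposited table holds 1 column of log2 values per array, made by the authors with RMA, per the submitters' processing notes; no version is stated in those notes. RMA removes background, brings arrays to one distribution and summarises each probe set, and it can leave noisy differences between dim probe sets. Of 22810 probe sets, 64 controls were left out and 22746 tested. Names came from a platform probe table, updated through RefSeq gene identifiers (TAIR10.1): 13513 probe sets had 1 gene, 503 several and 8730 were not listed, so loci called not measured may lie among these. Roles of loci without a symbol are general knowledge.

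Both contrasts were fitted with limma 3.58.1 under R 4.3.3, by two-sided tests, Benjamini-Hochberg adjusted over all tested probe sets, with the prior variance fitted by maximum likelihood; the fit was tested on simulated data. The 95% intervals use the same moderated variance. Replicate numbers were read as pairs because the series text gives 2 independent analyses, each with its own seedlings; deviations of same-numbered arrays from group means correlated at 0.712. Nothing says that cultures within a preparation were separate, so the p-values reflect only how these arrays vary, which may be technical. Genes, lists, prior and pairing were chosen with earlier results of these data known. Named were all measured decarboxylases, list genes that passed either contrast or had the largest GR24 difference in their list, and the 5 nearest profiles; other genes are named for range, probe-set disagreement or as markers. Alternatives tried were no block, 2 other priors, 2 scalings, a filter on dim signals, an offset of 16 and each array left out. Figures were drawn with matplotlib 3.10.9.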

Additional observations from a re-analysis of the deposited data

How the results depend on the processing

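With the replicate block, 69 probe sets passed for GR24 minus mock. The count was 281 with the default prior of limma, 261 when that prior was robust and followed the signal, 24 with 16 added before log2 and 0 with no replicate block, where 341 had an unadjusted p under 0.05 in limma; the cause was not tested. It was 51 after repeated quantile normalization, 53 after centring and 55 without the dimmest 25%. With each array left out of a fit with no block, which assumes that a single array varies as the pair in the other group does, it was 0 throughout (134 to 924 with an unadjusted p under 0.05 in limma). The difference of AT5G15950 lay between -0.68 and -0.60 in the 8 settings with all arrays. For replicate 2 minus replicate 1, 3805 passed, and 2522 with no treatment block.

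The same settings were run for the measured list genes, the markers and the nearest profiles, 14 of the 28 genes being added after the data had been seen. With all 4 arrays the sign turned only for AT2G25150, which was -0.00226 after repeated quantile normalization and -0.0125 after centring for GR24 minus mock, and 0.00346 after repeated quantile normalization between replicates. With single arrays left out, 18 of the 28 genes changed sign for GR24 minus mock, and such fits mix in the difference between preparations. SAMDC lay between -0.153 and 0.127, AT3G25570 between -0.235 and 0.125, ARD4 between -0.405 and 0.216, AT3G58180 between -0.046 and 0.158, AT1G12010 between -0.252 and 0.512, AT1G79710 between -0.975 and 0.0138 and LCR67 between -1.15 and 0.0372. Oxidase genes lay between -0.101 and 0.218 (AT1G31710), -0.183 and 0.0591 (AT2G42490) and -0.281 and 0.102 (AT3G43670). SDT lay between -0.0427 and 0.186, AT2G25150 between -0.0332 and 0.0393, AT2G39020 between -0.0653 and 0.286 and AT5G50010 between -0.0321 and 0.0656. Of the markers, LHCB4.1 lay between -0.13 and 0.222, PYK10 between -0.103 and 0.0167, EXPA7 between -0.494 and 0.248 and EXPA18 between -0.156 and 0.439. For GR24 minus mock, the nearest profiles AT2G40460, BZIP34 and LCR67 did not pass in the main fit. Each passed in 2 of the 7 other settings with all arrays, the 2 other priors, where AT5G15950 passed as well. Between replicates, AT1G31710 and AT2G39020 passed in 3 and LHCB4.1 in 1 of the 7 other settings. Averaging probe sets was not run, since each decarboxylase gene had 1. No detection calls were used, so dim probe sets have no stated background.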
